A study of Mus musculus with 6 samples.

Results

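Amino acid transporters of the solute carrier families SLC1, SLC3, SLC6, SLC7, SLC36, SLC38 and SLC43 were examined in whole mouse uteri. The members were taken by symbol (*Slc1a*, *Slc3a*, *Slc6a*, *Slc7a*, *Slc36a*, *Slc38a* and *Slc43a* followed by a number). The rule found 67 genes in the table of gene names, 62 of them among the 20145 genes matched to the array, and 40 of them among the 14856 genes that could be tested. A few are in the set by name alone: the monoamine transporters of SLC6, 3 antisense RNAs (*Slc36a1os*, *Slc36a3os* and *Slc6a19os*), and *Slc7a6os*, a protein-coding gene next to *Slc7a6*.

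RNA came from uteri of 3 Sox17f/f and 3 Sox17ed/ed mice at gestation day (GD) 3.5 of natural pregnancy, mated at 8 to 10 weeks of age, and each sample was read in 1 color on its own Agilent G3 Mouse GE array. Both genotypes are homozygous for the floxed *Sox17* allele (f/f). In Sox17ed/ed mice, labeled LtfiCre/+, 1 copy of the *Ltf* (lactoferrin) locus also carries an iCre recombinase. It removes *Sox17*, which encodes a transcription factor, from the uterine epithelium after puberty. The deletion thus starts only in cells in which *Ltf* is active, while the RNA is that of all uterine cells. The Sox17f/f labels name no iCre, so effects of iCre or of the altered *Ltf* locus cannot be told apart from *Sox17* loss. Uteri were collected without embryos.

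Amino acids cross membranes only through carriers. Some carriers use the sodium gradient to concentrate amino acids in the cell, and others exchange 1 amino acid for another, so that the cell's own glutamate or glutamine pays for the uptake of cystine or leucine. The SLC7 exchangers are light chains that reach the plasma membrane bound to a heavy chain of SLC3. Through carriers of the families examined, the uterine epithelium loads the luminal fluid with amino acids, taurine and other osmolytes. A blastocyst takes these up before implantation.

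Levels below are log2 of the deposited spot intensity after quantile normalization between the 6 arrays, and a difference is Sox17ed/ed minus Sox17f/f on that scale. A gene was called higher or lower at an unadjusted limma p under 0.01 and a fold change of at least 1.4, and the adjusted p given is the Benjamini-Hochberg value of limma over all 14856 genes. Intensities of different probes are not comparable, so no level of 1 gene is set against that of another. "Well above background" is the scanner software's own mark for a spot. The limma p-values set the genotype difference against the spread between these uteri, moderated over all genes. Nothing in the labels says how the replicates were bred or housed, so an effect of either on the genotype difference is not covered by the p-values.

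*Sox17* itself read 12.21, 12.07 and 12.22 on the Sox17f/f arrays and 9.75, 9.59 and 9.81 on the Sox17ed/ed arrays, a difference of -2.45 (SE 0.09, adjusted p = 2.69e-05). *Ltf*, the gene whose locus carries the recombinase, differed by 5.63 (SE 0.15, adjusted p = 1.17e-05). Spots well above background made up 60.7% to 65.7% of the 59305 spots other than controls in Sox17f/f and 56.8% to 59.4% in Sox17ed/ed, and no spot was saturated. All 6 arrays shared 1 slide and 1 scan, but each genotype filled its own row of the slide, so slide row and genotype cannot be told apart. All 10 markers of uterine epithelium could be tested, and the marker lists are given at the end.

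Of the 40 transporter genes tested, 4 were higher and 4 were lower in Sox17ed/ed uteri. *Slc7a11*, *Slc6a13*, *Slc6a12* and *Slc7a4* rose, and *Slc1a1*, *Slc6a6*, *Slc7a7* and *Slc7a2* fell. Among all genes tested, 6.04% were higher and 6.46% were lower by the same thresholds, so that 20.0% of the transporters and 12.5% of all genes were called. An adjusted p under 0.05 was reached by 10 of the 40 transporters, the 8 called genes with *Slc38a2* and *Slc1a5*, against 18.8% of all genes. The 3 arrays of each genotype did not overlap for 24 of the 40 transporters, against 40.3% of all genes, with genes that lacked an array counted as overlapping in both. The median difference was -0.05 for the transporters and -0.0016 for all genes, with 18 transporters above 0 and 22 below, and the median absolute difference was 0.28 against 0.17. Most of the tested transporters, 36 of the 40, were well above background on every array. *Slc7a11* entered the tested set only because it was well above background in Sox17ed/ed, so its inclusion in these counts was not independent of its change.

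**Figure D1:**
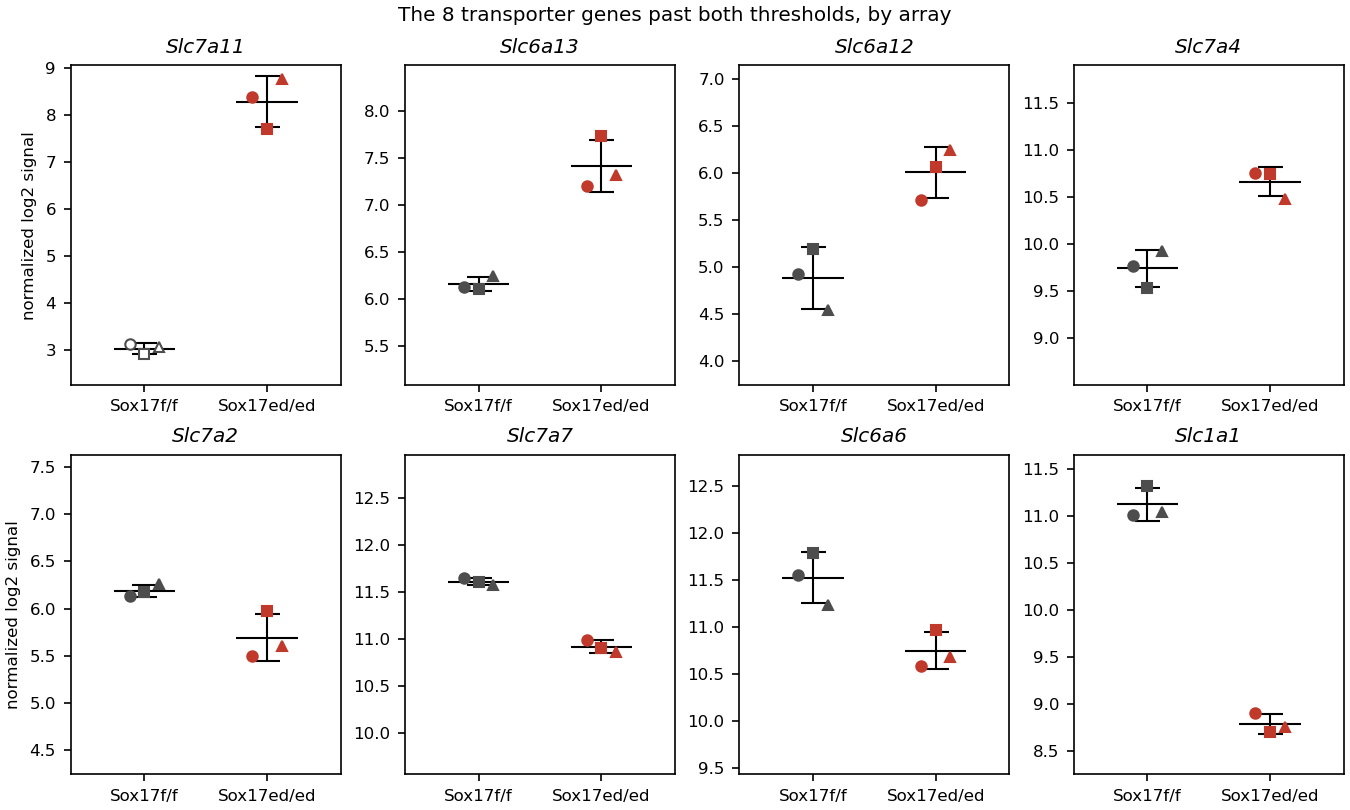
Normalized log2 intensity (y axis, separate range for each panel) of the 8 transporter genes past the thresholds in each uterus, with Sox17f/f and Sox17ed/ed side by side; each point is 1 array, the marker shape gives the replicate, open points were not well above background, long bars are group means and short bars give 1 SD. In all 8 panels the 3 Sox17ed/ed arrays lie apart from the 3 Sox17f/f arrays, most widely for *Slc7a11*. Its Sox17f/f points are near background, so its fold is set against the dimmest signals well above background. That fold is 25.5 with this processing, less with normexp background correction, and not a strict minimum.

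The heteromeric exchangers moved in both directions while their shared heavy chain stayed close to its level in Sox17f/f. *Slc7a11* (chromosome 3) encodes xCT, the light chain that takes up cystine in exchange for glutamate and so supplies the cysteine for glutathione. It read 3.13, 2.91 and 3.07 in Sox17f/f, where no array had it well above background, and 8.39, 7.71 and 8.78 in Sox17ed/ed, where it was well above background on all 3. Every Sox17ed/ed uterus was thus far above every Sox17f/f uterus, and the SD of the Sox17ed/ed uteri was 0.54. The fitted difference was 5.25 (SE 0.26, adjusted p = 8.58e-05). *Slc7a11* is therefore given as 25.5-fold higher in Sox17ed/ed, computed against the lowest signal of any probe that each Sox17f/f array held well above background. Brighter signals of other probes missed that mark, so 25.5-fold is not a strict minimum. The value also holds only for the deposited processed intensity, as the size depends on how the background is handled. After normexp background correction the difference was 2.46 on the log2 scale. This is a smaller fold than 25.5, though still past the thresholds.

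*Slc7a7* (chromosome 14), the y+LAT1 light chain that carries arginine and lysine out of cells in exchange for neutral amino acids and sodium, went the other way. It read 11.65, 11.61 and 11.58 in Sox17f/f and 11.00, 10.91 and 10.86 in Sox17ed/ed. The replicates were tight in both genotypes, and the fall of 1.61-fold (difference -0.69, SE 0.07, adjusted p = 0.00112) was far outside their spread. The other light chains tested did not pass the thresholds. *Slc7a5* (LAT1), which imports leucine and other large neutral amino acids, differed by -0.20 (SE 0.13, adjusted p = 0.341), *Slc7a8* (LAT2), which carries a similar range of substrates, by -0.20 (SE 0.08, adjusted p = 0.146), and *Slc7a6* (y+LAT2) by -0.30 (SE 0.15, adjusted p = 0.206). The *Slc7a8* value rests on a probe printed as 10 spots, of which 1 was left out as an outlier on each of 2 Sox17ed/ed arrays.

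*Slc3a2*, the 4F2 heavy chain (CD98) that all of these light chains bind, read 13.54, 13.63 and 13.59 in Sox17f/f and 13.74, 13.65 and 13.73 in Sox17ed/ed. The Sox17ed/ed arrays lay just above the Sox17f/f arrays, and the difference of 0.12 did not pass the test (95% confidence interval -0.03 to 0.27, adjusted p = 0.239). *Slc3a1*, the other heavy chain, its partner *Slc7a9*, and *Slc7a10*, a carrier of small neutral amino acids and D-serine, stayed near background in all uteri.

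Promoter windows are shown for *Slc7a11* and *Slc1a1*, the transporters with the largest rise and the largest fall, and for *Slc7a7*, which fell. They are the RefSeq windows of build GRCm38.p6 from 250 bases before to 50 bases after a transcription start, 300 bases in all, written 5′ to 3′ on the strand of the gene. Capitals mark matches, on either strand, to TGATGNAA (N is any base), the core of the amino acid response element that ATF4 binds with a C/EBP partner.

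*Slc7a11*, chr3:50443564-50443863, minus strand: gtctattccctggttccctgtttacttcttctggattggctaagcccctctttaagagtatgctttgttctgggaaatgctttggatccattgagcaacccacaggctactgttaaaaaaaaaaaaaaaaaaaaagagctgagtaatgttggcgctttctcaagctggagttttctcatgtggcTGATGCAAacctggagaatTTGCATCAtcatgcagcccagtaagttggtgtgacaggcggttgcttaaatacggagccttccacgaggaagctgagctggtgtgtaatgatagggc

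*Slc1a1*, chr19:28834885-28835184, plus strand: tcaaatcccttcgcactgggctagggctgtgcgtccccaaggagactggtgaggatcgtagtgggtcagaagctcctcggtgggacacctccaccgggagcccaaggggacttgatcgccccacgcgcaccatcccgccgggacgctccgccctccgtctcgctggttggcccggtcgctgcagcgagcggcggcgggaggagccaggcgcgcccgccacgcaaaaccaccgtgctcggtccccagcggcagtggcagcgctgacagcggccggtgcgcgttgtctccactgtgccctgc

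*Slc7a7*, chr14:54417895-54418194, minus strand: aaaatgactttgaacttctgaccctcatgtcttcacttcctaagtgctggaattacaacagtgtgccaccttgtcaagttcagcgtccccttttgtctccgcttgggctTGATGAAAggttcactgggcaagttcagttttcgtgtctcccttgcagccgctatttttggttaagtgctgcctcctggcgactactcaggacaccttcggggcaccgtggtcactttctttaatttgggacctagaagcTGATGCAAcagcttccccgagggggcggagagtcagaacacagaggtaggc

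The *Slc7a11* window held 2 matches in opposite orientation, which begin 66 and 47 bases before the start. The *Slc1a1* window held no match, and 70.3% of its bases are G or C against 44.7% in the *Slc7a11* window. The *Slc7a7* window shown held 2 matches, 141 bases and 1 base before that start, and the second of these matches lies also in the window of another listed start of the same gene. The gene has 5 listed starts, and the windows of the other 3 held no match. Of all 32851 promoter windows listed, 3.97% held the core, against 5 of the 70 windows (7.14%) of the 49 transporter genes with an entry. Of the 5 called transporters with an entry, *Slc7a11*, which rose, and *Slc7a7*, which fell, held it. The SOX core AACAAT was in 10.7% of all windows, in 4 of the 70 transporter windows (5.71%) and in none of those of the 5 called genes. A match is a match of letters in this window and not a measured binding site.

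The cationic amino acid transporters, which carry arginine, lysine and ornithine without a heavy chain, were split as well. *Slc7a4* (chromosome 16), related to them by sequence but without an established substrate, read 9.77, 9.54 and 9.93 in Sox17f/f and 10.77, 10.75 and 10.49 in Sox17ed/ed. All Sox17ed/ed uteri were higher, by 1.90-fold (difference 0.92, SE 0.13, adjusted p = 0.00492). A second *Slc7a4* probe stayed near background in all uteri. *Slc7a2* (chromosome 8), a cationic carrier that supplies arginine to nitric oxide synthase and arginase in activated macrophages, read 6.13, 6.17 and 6.26 in Sox17f/f and 5.49, 5.97 and 5.61 in Sox17ed/ed. Its Sox17ed/ed arrays were all lower, but its fall of 1.41-fold (difference -0.50, SE 0.13, adjusted p = 0.0471) lay just inside the fold threshold, and it lost the call under 10 of 15 alternative settings, among them 5 of the 6 that leave out 1 array. *Slc7a1*, the most widely expressed of this group, differed by 0.30 (adjusted p = 0.18) and *Slc7a3* by 0.34 (adjusted p = 0.0545).

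The largest fall among the transporters was that of *Slc1a1* (chromosome 19), which encodes EAAC1, a sodium-driven importer of glutamate, aspartate and cysteine. It read 11.00, 11.32 and 11.04 in Sox17f/f and 8.90, 8.69 and 8.75 in Sox17ed/ed, so the groups were separated by far more than the spread within either. The level was 5.07-fold lower in Sox17ed/ed (difference -2.34, SE 0.11, adjusted p = 6.92e-05). Its probe is printed as 10 spots, and outlier spots were left out on Sox17f/f arrays 1 and 3. The other glutamate transporters tested, *Slc1a3* (difference 0.32, adjusted p = 0.101) and *Slc1a6* (0.08, adjusted p = 0.767), did not pass, and *Slc1a2* stayed near background in all uteri.

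The carriers of glutamine and small neutral amino acids changed little in fold. *Slc1a5* (ASCT2), which exchanges glutamine for other neutral amino acids, read 12.20, 12.26 and 12.04 in Sox17f/f and 11.89, 11.59 and 11.60 in Sox17ed/ed. All Sox17ed/ed values were lower, and the difference of -0.47 (SE 0.11, adjusted p = 0.0311) was 1.39-fold, just outside the threshold. A second *Slc1a5* probe differed by -0.44. *Slc1a4* (ASCT1), which prefers serine, alanine and cysteine, differed by -0.22 (SE 0.09, adjusted p = 0.167).

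*Slc38a2* (SNAT2), a sodium-driven importer of the system A type whose transcript is known to rise when cells are starved of amino acids, read 12.56, 12.50 and 12.51 in Sox17f/f and 11.97, 12.00 and 12.16 in Sox17ed/ed. The groups did not overlap, and the difference of -0.48 (SE 0.08, adjusted p = 0.00779) was also 1.39-fold and just outside the threshold. On chromosome 15 it lies between *Slc38a1* (SNAT1) and *Slc38a4* (SNAT4), with no other coding gene listed between them. *Slc38a1* read 12.18, 12.29 and 12.21 in Sox17f/f against 12.38, 12.49 and 12.58 in Sox17ed/ed, a difference of 0.26 (SE 0.08, adjusted p = 0.0661), and *Slc38a4* differed by 0.36 (SE 0.18, adjusted p = 0.228). Neither neighbor passed the test, though *Slc38a4* did without Sox17f/f replicate 2 (difference 0.56), and the values of the 3 neighbors differed in sign. The 2 dimmer *Slc38a1* probes differed by 0.18 and -0.08. *Slc38a9*, the lysosomal carrier that reports arginine to mTORC1, differed by 0.17 (SE 0.08, adjusted p = 0.161). The system A and N group as a whole had 10 members tested and 0 called, with differences between -0.48 and 0.36. With the unadjusted limma p alone, *Slc38a1*, *Slc38a2*, *Slc38a6* and *Slc38a7* were under 0.05.

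**Figure D2:**
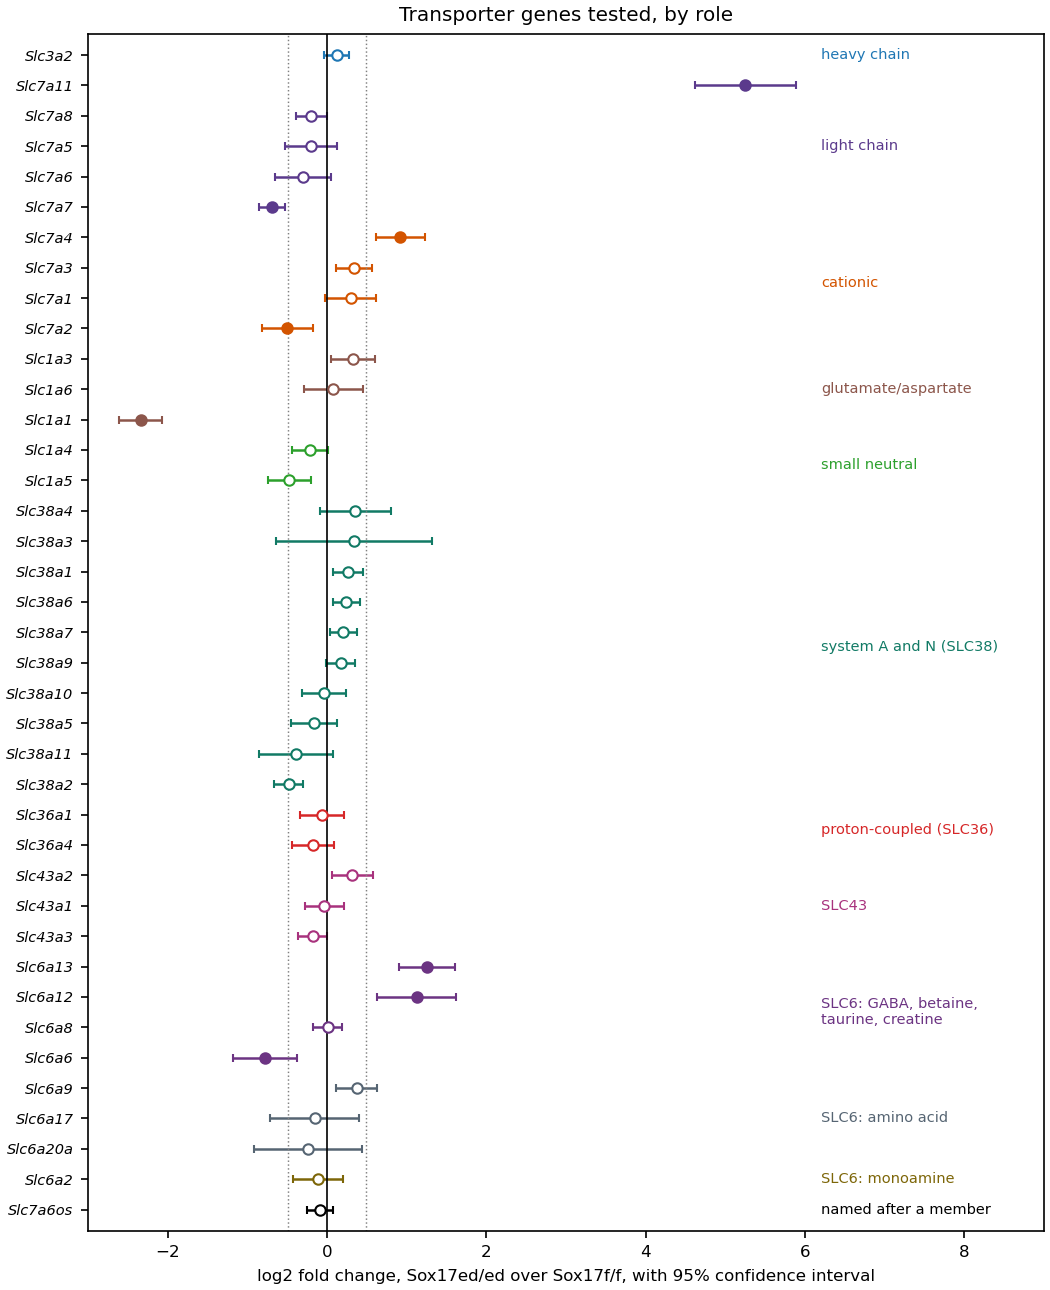
log2 fold change of Sox17ed/ed over Sox17f/f (x axis) for the transporter genes tested, with 1 gene not shown, grouped by role; points are limma estimates from 3 arrays a genotype (2 Sox17ed/ed arrays for *Slc43a1*), bars are 95% confidence intervals, filled points passed the thresholds, and dotted lines mark the 1.4-fold limits. *Slc7a11* and *Slc1a1* lie far from 0, and most other transporters lie within the dotted lines.

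Among the SLC6 carriers of GABA, betaine, taurine and creatine, 2 of 5 tested were higher and 1 was lower. This is 60% called in a small group, against 12.5% of all genes. *Slc6a13* (GAT2) takes up GABA, and also taurine, with sodium and chloride. It read 6.12, 6.10 and 6.24 in Sox17f/f and 7.19, 7.73 and 7.31 in Sox17ed/ed, a rise of 2.39-fold (difference 1.26, SE 0.14, adjusted p = 0.00236). *Slc6a12* (BGT1), which takes up the osmolyte betaine as well as GABA, read 4.93, 5.19 and 4.54 in Sox17f/f and 5.72, 6.06 and 6.25 in Sox17ed/ed, a rise of 2.18-fold (difference 1.12, SE 0.20, adjusted p = 0.0135). For both genes all 3 Sox17ed/ed uteri were above all 3 Sox17f/f uteri. They lie next to each other on chromosome 6 with no coding gene listed between them, and both are dim enough that normexp background correction brought the differences to 0.79 and 0.56, still past the thresholds.

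*Slc6a6* (chromosome 6), the taurine transporter, fell. It read 11.55, 11.78 and 11.24 in Sox17f/f and 10.59, 10.96 and 10.68 in Sox17ed/ed, so the highest Sox17ed/ed uterus stayed below the lowest Sox17f/f uterus. The fall was 1.72-fold (difference -0.78, SE 0.17, adjusted p = 0.0234). Leaving out Sox17f/f replicate 1, Sox17ed/ed replicate 1 or Sox17ed/ed replicate 3 ended the call, with differences of -0.77, -0.70 and -0.75. *Slc6a8*, the creatine transporter, differed by 0.01 (95% confidence interval -0.17 to 0.19).

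No called gene was among the remaining SLC6 members or the SLC36 and SLC43 families. *Slc6a9* (GlyT1), the glycine transporter, differed by 0.37 (SE 0.11, adjusted p = 0.0586), and its second probe differed by 0.43. *Slc6a2*, the norepinephrine transporter, differed by -0.12 (adjusted p = 0.578), and *Slc6a20a*, a transporter of proline, by -0.24 (adjusted p = 0.604). The proton-coupled *Slc36a1* differed by -0.06 (adjusted p = 0.754). In SLC43, whose members carry branched-chain amino acids or, for *Slc43a3*, purine bases, *Slc43a1* differed by -0.03 (adjusted p = 0.856, 1 Sox17ed/ed array left out as an outlier) and *Slc43a3* by -0.18 (adjusted p = 0.158).

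**Figure D3:**
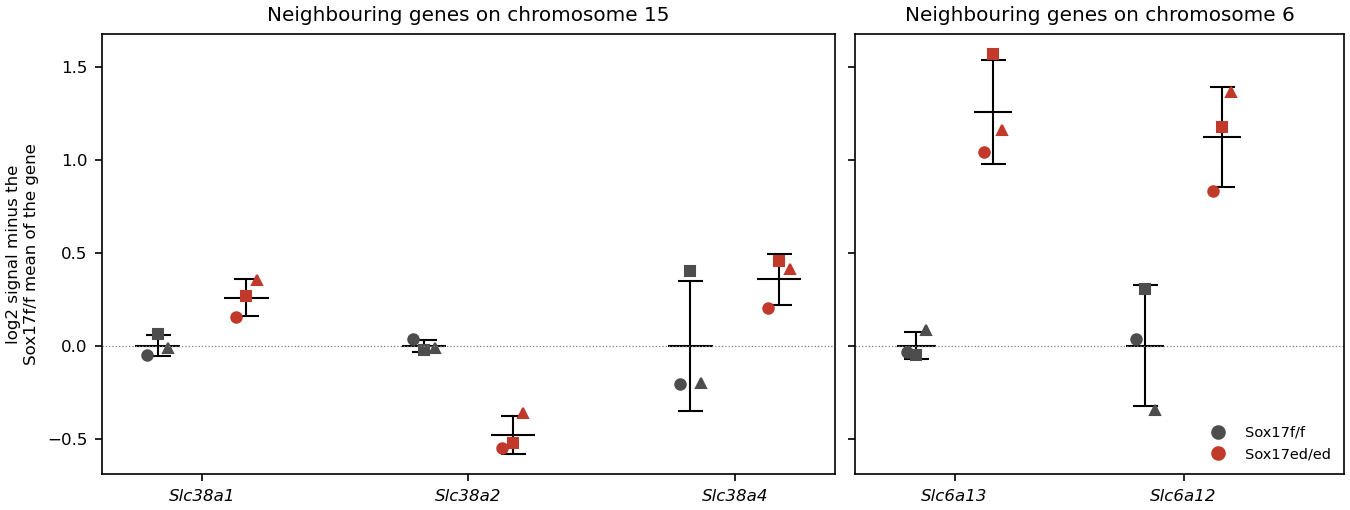
Normalized log2 intensity minus the Sox17f/f mean of the gene (y axis, log2 units) of neighboring transporter genes, *Slc6a13* and *Slc6a12* on chromosome 6 and *Slc38a1*, *Slc38a2* and *Slc38a4* on chromosome 15, on each array; points are arrays, long bars are group means and short bars give 1 SD. Both chromosome 6 genes are higher in Sox17ed/ed, whereas *Slc38a2* alone among the chromosome 15 genes has an adjusted p under 0.05 and is lower.

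The members that were not tested add few values. On the array 17 transporter genes were not well above background in any uterus, among them *Slc6a19*, *Slc6a18*, *Slc36a2* and *Slc7a12*, and a further 5 were well above background on 1 or 2 arrays only. *Slc6a4*, the serotonin transporter, read 3.34, 3.02 and 2.22 in Sox17f/f, never well above background, and 4.08, 4.79 and 4.48 in Sox17ed/ed, where 2 of 3 arrays were well above background. Against the dimmest signal of any probe well above background on each Sox17f/f array, it was 1.78-fold higher in Sox17ed/ed. Brighter signals of other probes missed that mark, so this is not a strict minimum. *Slc6a15*, a neutral amino acid carrier, read 3.81, 4.06 and 3.49 in Sox17f/f, never well above background, and 3.84, 4.79 and 4.82 in Sox17ed/ed, where 2 arrays were well above background. The groups overlapped, and no fold is given. *Slc6a14*, which carries neutral and cationic amino acids, was well above background on 2 Sox17f/f arrays and 0 Sox17ed/ed arrays, and *Slc1a7* and *Slc36a3* on 1 array each. None of these 5 entered the test. The other 5 members, *Slc6a5*, *Slc6a16* and the antisense RNAs, had no probe matched here.

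The neighboring pathway was read from 4 lists. Beside the 12.5% of all genes that were called, enzymes of amino acid metabolism had the highest share of the 4 lists, with 8 higher and 7 lower of 37 tested (40.5%). *Ass1*, which makes argininosuccinate for arginine synthesis, was higher by 2.18, *Bcat1*, a branched-chain transaminase, by 2.12, *Cdo1*, which oxidizes cysteine on the way to taurine, by 1.48, and *Prodh*, which degrades proline, by 1.44. *Bcat1* was fitted without Sox17f/f replicate 2, whose spot was an outlier. *Gatm*, the first enzyme of creatine synthesis, was higher by 1.16. Lower genes included *Hdc*, which makes histamine from histidine (-5.68), *Cbs*, which makes cystathionine from homocysteine and serine (-2.88), and *Glul*, glutamine synthetase (-1.31). The list's median was 0.06.

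ATF4 targets, which cells switch on when amino acids run short, had 1 higher and 4 lower of 26 tested (19.2%, against 12.5% of all genes), with a median of -0.20 against -0.0016 for all genes. *Gdf15*, a secreted stress cytokine, was higher by 3.05. *Atf3* (-1.38), *Cebpb* (-0.996), *Wars* (-0.59) and *Ppp1r15a* (-0.52) were lower. *Atf3* and *Cebpb* are transcription factors of the same stress response, and *Wars* charges tRNA with tryptophan. Of the genes by which mTORC1 senses amino acids, 0 of 34 passed the thresholds, with differences between -0.55 and 0.54. An adjusted limma p under 0.05 was reached by 5 of these 34, against 18.8% of all genes. The arrays of the genotypes did not overlap for 19 of the 34, against 40.3% of all genes. An unadjusted limma p under 0.05 was reached by 9, for which no share of all genes was computed. Other carriers of amino acids and peptides had 0 higher and 2 lower of 18 tested (11.1%, close to the 12.5% of all genes), among them *Slc25a22*, a mitochondrial glutamate carrier (-0.62), whose call was lost with normexp correction (-0.13) and with the eBayes trend.

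**Figure D4:**
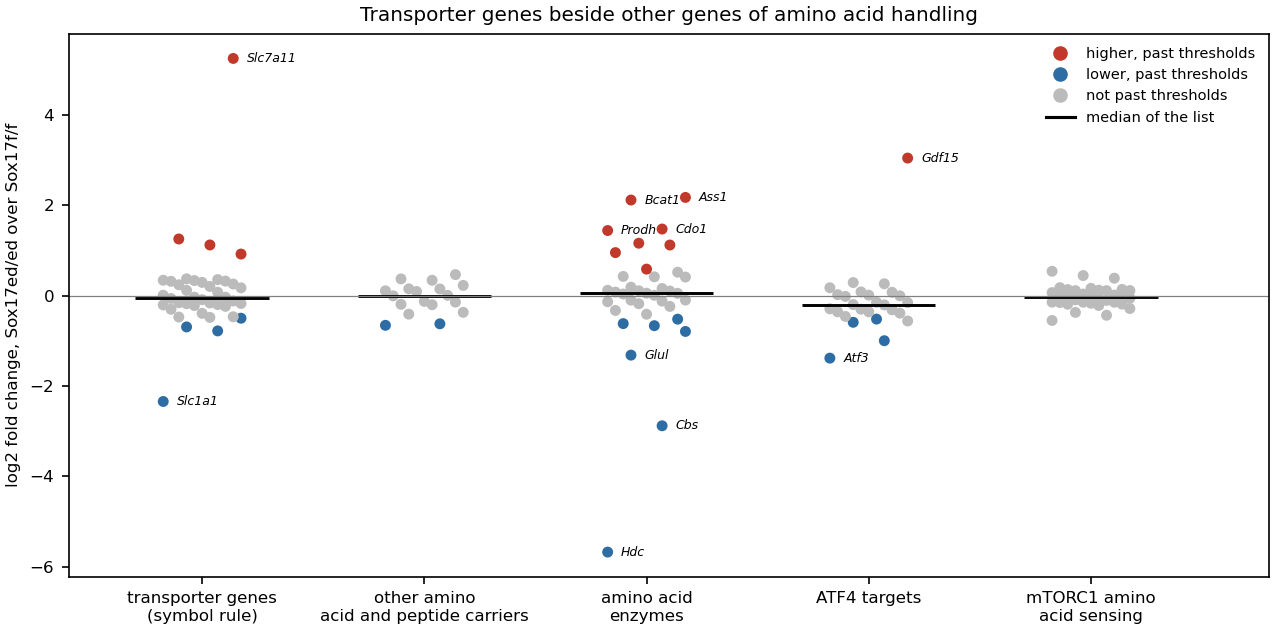
log2 fold change of Sox17ed/ed over Sox17f/f (axis in log2 units) for each tested gene of the transporter set and of the 4 pathway lists; each point is 1 gene, red points were higher and blue points lower past the thresholds, gray points did not pass, and black lines mark the medians. Enzymes of amino acid metabolism spread widest, from -5.68 to 2.18, and the mTORC1 sensing genes stay between -0.55 and 0.54.

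Markers of the uterine cell types moved beside these results. Of all genes tested, 12.5% were called, 6.04% higher and 6.46% lower. The called share was 60% for the oviduct and ciliated list, and 40% each for uterine epithelium and exocrine pancreas. For the stratified squamous list it was 25%, and for smooth muscle 16.7%. Each list holds few genes. All 6 glandular epithelium markers were lower, with a median difference of -5.76 and a summed linear signal, set mostly by the brightest probes of a list, of 33673 to 53799 in Sox17f/f and 129 to 201 in Sox17ed/ed. *Lif* and *Prss29* were well above background on all 3 Sox17f/f arrays and on no Sox17ed/ed array. They entered the test only through Sox17f/f. Against the dimmest signal of any probe well above background on each Sox17ed/ed array, their falls were 4.37-fold and 483-fold, and neither is a strict minimum. Their near-background values are part of the median and the Sox17ed/ed sums. The uterine epithelium list had 3 of 10 higher and 1 lower, with a median difference of 0.02 and sums of 47992 to 49684 in Sox17f/f and 49487 to 60845 in Sox17ed/ed. In the stratified squamous list *Krt5*, a basal keratin, was higher (1 of 4), a call lost under 8 alternative settings. *Krt5* was well above background on no Sox17f/f array, so it entered the test only through Sox17ed/ed. Its rise against the dimmest signal of any probe well above background on each Sox17f/f array was 5.25-fold, again not a strict minimum. The others tested, *Krt14* (0.30), *Krt13* (0.06) and *Trp63* (-0.12), were not called. For *Trp63* the study reports the opposite by quantitative PCR, with more mRNA in Sox17ed/ed than in Sox17f/f uteri. Of 5 oviduct and ciliated cell genes, 1 was higher and 2 were lower. Smooth muscle had 1 of 6 lower, with a median difference of -0.31 and sums of 469483 to 516561 against 341332 to 412246. Of 5 exocrine pancreas genes, 2 were lower, and *Pnlip* stayed near background throughout. No marker of endothelium (6 tested), endometrial stroma (8), erythrocytes (5), macrophages and leukocytes (4), ovary (3) or adipocytes (2) was called. An adjusted limma p under 0.05 was reached by 4 endothelium, 2 stroma and 1 of the macrophage and leukocyte markers, against 18.8% of all genes. For erythrocytes, ovary and adipocytes it was reached by 0. The endothelium list had a median difference of -0.34, and its sums were 8648 to 8791 in Sox17f/f and 6763 to 7119 in Sox17ed/ed. In bulk tissue, fewer cells of a type and less RNA per cell cannot be told apart, and the part of these shifts in the values of *Slc1a1*, *Slc7a11* or any other transporter was not tested.

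**Figure D5:**
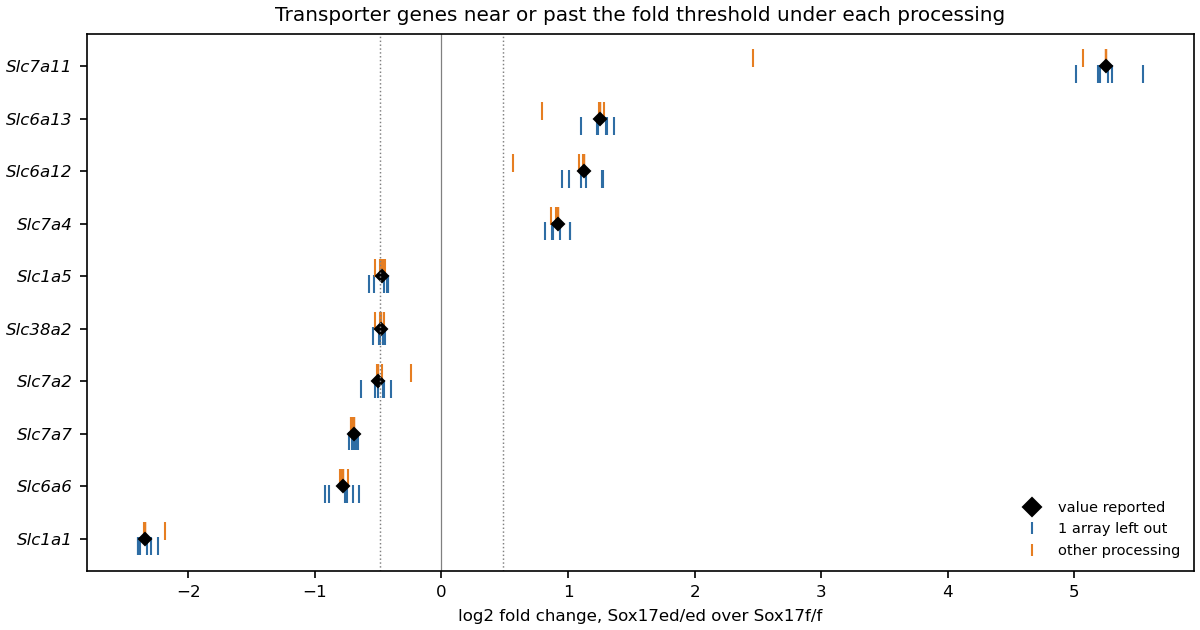
log2 fold change of Sox17ed/ed over Sox17f/f (x axis) of the 8 called transporters and of *Slc38a2* and *Slc1a5* under the processing alternatives; diamonds are the values given in the text, blue ticks leave out 1 array, orange ticks are other processing, and dotted lines mark the 1.4-fold limits. *Slc1a1* stays near -2.34 and *Slc7a11* falls to 2.46 with normexp correction, while *Slc7a2*, *Slc38a2* and *Slc1a5* straddle the lower limit.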

How the data were processed

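RNA from whole uteri was measured on 6 arrays, 3 of each genotype, grouped by the genotype in the labels. The scanner output of the arrays was deposited by the authors, with no normalization between arrays. Values were read from the deposited processed intensity of each spot, made by Agilent Feature Extraction (11.0.1.1 in the file headers and 9.1 in the submitters' processing notes), which had removed background and spatial trends. A deposited table of processed values, which matched the mean processed signal of each probe, was used as an alternative. The study's methods name quantile normalization, an unadjusted p under 0.01 and a fold change of at least 1.4, with no test named.

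Control spots and outlier spots were left out, log2 intensities were quantile normalized and spots of a probe were averaged. Accessions matched 26582 of 55681 probes to 20145 genes of the RefSeq table of GRCm38.p6, while 16194 carry a genome position only. The array design is on mm9, so no probe coordinate is given. A probe was kept if 3 or more of the 6 arrays had it well above background, and if no more than 1 array lacked a value. The probe of highest mean signal stood for a gene. A spot counts as well above background by the software's mark, and a probe by at least 50% of its spots.

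Genotypes were compared in R 4.3.3 by limma 3.58.1, fitting with lmFit and moderating with eBayes. The p-values of all 14856 genes tested, of which 93 lacked an array, were adjusted together (Benjamini-Hochberg). Where no array of 1 genotype was well above background, the fold sets the mean of the brighter group against a floor. Per array of the other group, the floor is the dimmest signal of any probe well above background, or the probe's own if higher. Brighter signals can miss that mark, so these folds are not strict minimums. For example, *Slc6a15* missed it at 4.06 in Sox17f/f, and *Slc6a20a*, at 5.30, 4.57 and 4.24, reached it on 1 Sox17ed/ed array. Precision is limited by having 3 arrays a genotype, where the smallest exact permutation p of 1 gene is 0.1. The fit was tested on simulated data. Python 3.11.15 with pandas 2.3.3, numpy 2.4.6 and matplotlib 3.10.9 searched promoters and drew plots.

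The members, the 4 pathway lists and the 12 marker lists were chosen with earlier results of these data known. Genes named were those called or with an adjusted p under 0.05, the heavy chains and their light chains, selected glutamine and taurine carriers, neighboring members, at most 8 called genes of a list, and a few further members that fill out their group, picked with their values seen. The single values of 1 tested transporter and 1 called gene of a list are not reported here. Alternatives were a 75th percentile shift, normexp with an offset of 50, other filters on dim probes, other choices of probe, an eBayes trend, the deposited table, a fold threshold of 2, the replicate number as a block, and leaving out each array. The files used hold no mean signal of a spot, so normexp was run on the median signal and median background.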

Additional observations from a re-analysis of the deposited data

How the results depend on the processing

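Of 463 recomputed differences of 31 named transporters, 432 kept their direction and their side of the thresholds, 13 lost and 9 gained a call, and 9 changed sign, all of genes not called. With the deposited processed values, which average all spots of a probe, outliers included, *Slc7a8* was at 0.10 and *Slc43a1* at 0.20. *Slc36a1* was at 0.012 with normexp correction and 0.021 with the mean of its probes, and *Slc6a8* at -0.026 with the 75th percentile shift and -0.022 with normexp correction. With 1 array left out, *Slc43a1* ranged from -0.154 to 0.090, *Slc6a8* from -0.037 to 0.069 and *Slc1a6* from -0.063 to 0.20. Of 239 differences of 16 other named genes, 14 lost the call, those of *Krt5*, *Ppp1r15a* and *Slc25a22*. *Slc1a1*, *Slc6a12*, *Slc6a13*, *Slc7a4* and *Slc7a7* kept the call in every setting at 1.4-fold, and *Slc7a11* in every one except the filter for all 6 arrays, which removes it. At 2-fold, lower transporters numbered 1 (in place of 4), all genes called 819 (in place of 1858), enzymes 9, ATF4 targets 2 and other carriers 0. Normexp correction gave 0 other carriers and 2 mTORC1 sensing genes, and the eBayes trend gave 1 of each. Leaving out 1 array at a time gave 4 to 5 higher and 2 to 5 lower transporters (2 without Sox17f/f replicate 1), 1667 to 2032 genes in all, 2 to 4 other carriers (4 without Sox17ed/ed replicate 2) and 0 to 2 mTORC1 sensing genes (2 without Sox17f/f replicate 3). The cause was not tested in any of these.

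With no filter, *Slc6a4* was called higher and *Slc36a2*, dim on every array, lower. *Slc38a2* was called lower in 5 settings, *Slc1a5* in 3, and *Slc38a4* higher (0.56) without Sox17f/f replicate 2. The replicate numbers were not shown to pair the uteri (correlations of same-numbered deviations 0.063, -0.114 and -0.00013). With the replicate number as a block, 1796 genes were called, with 4 transporters higher and 3 lower. The 1 transporter call lost under the block was that of *Slc7a2*, with a limma adjusted p of 0.0765. Dim signal limits the size given for *Slc7a11*, *Slc6a12* and *Slc6a13*.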
